A study of Mus musculus with 2 samples.

Results

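The signals of 40 genes of glycolysis and of the response to low oxygen were compared between Ebp1 knock out and wild type mouse embryo fibroblasts (MEFs). The members were listed by name, and every probe set whose only annotated gene symbol was 1 of these names was taken. This gave 85 probe sets for 38 of the 40 genes, out of 34958 probe sets for 18194 genes in all. No signal is given for Gpi1 and Eno1, since no probe set carried either symbol alone, but their promoters were searched. Where a gene had more than 1 probe set, the value given is that of the probe set with the highest log2 signal averaged over both arrays. Probe sets respond differently, so signals are compared between the arrays and not between genes.

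The MEFs came from day 12.5 embryos and were used at passage 2 in complete medium with fetal bovine serum. The wild type sample carried an intact Pa2g4 gene, which encodes Ebp1. The Ebp1 knock out sample came from mice with a retroviral gene trap in intron 2 of Pa2g4, kept on a mixed C57BL/6 and 129SvEvBrd background. The study describes the trap as carrying a PGK element, named for phosphoglycerate kinase 1, whose gene Pgk1 is a member here, and its part in the Pgk1 signal was not tested. RNA of each genotype was hybridized to 1 array, and neither the number of embryos behind it nor the oxygen level of the cultures was given in the sources used here. No hypoxia treatment is described for either sample. With 1 array per genotype there was no replicate spread, so no error, test or p-value accompanies any value below.

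Glycolysis breaks glucose down to pyruvate in the cytosol, and lactate dehydrogenase turns pyruvate into lactate, which monocarboxylate transporters carry across the cell membrane. Pyruvate dehydrogenase kinases hold back the use of pyruvate in the mitochondria by inhibiting pyruvate dehydrogenase. When oxygen is low, the alpha subunits HIF-1alpha and HIF-2alpha are no longer hydroxylated by the prolyl hydroxylases, pair with ARNT and bind short response elements near their target genes. Many glycolytic genes are such targets, and so are genes of mitophagy, collagen hydroxylation and vascular peptides. In fibroblasts grown with serum the glycolytic genes are transcribed at normal oxygen too.

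The core letters of the HIF response element, ACGTG or GCGTG, were looked for on both strands in promoters of 300 bases (250 before and 50 after a transcription start, RefSeq, GRCm38.p6). The stretches of 80 bases below are those before the start with the most matches, for 3 glycolytic enzymes and for 3 hypoxia genes that the results turn on. Capitals mark a match on either strand.
Ldha, chr7:46845710-46845789, plus strand: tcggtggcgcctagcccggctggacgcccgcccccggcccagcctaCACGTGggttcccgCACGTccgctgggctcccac
Pgk1, chrX:106186922-106187001, plus strand: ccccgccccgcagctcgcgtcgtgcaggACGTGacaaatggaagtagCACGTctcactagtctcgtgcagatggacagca
Pgam1, chr19:41911725-41911804, plus strand: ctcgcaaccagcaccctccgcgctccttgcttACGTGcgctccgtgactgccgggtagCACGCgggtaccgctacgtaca
Adm, chr7:110627548-110627627, plus strand: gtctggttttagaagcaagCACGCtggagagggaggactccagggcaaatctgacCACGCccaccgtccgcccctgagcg
P4ha1, chr10:59323114-59323193, plus strand: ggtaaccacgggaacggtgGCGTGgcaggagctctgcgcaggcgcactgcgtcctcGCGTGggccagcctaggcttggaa
Egln3, chr12:54204034-54204113, minus strand: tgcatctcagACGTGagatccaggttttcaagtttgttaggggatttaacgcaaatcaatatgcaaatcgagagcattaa

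The promoter table held 51 starts of 37 members; Slc2a3, Epas1 and Ndrg1 had no entry. ACGTG was in 29 of the 51 promoters (56.9%), against 19.6% of all 32851 promoters and 27.3% of the 5269 promoters of genes that reached a signal of 500. GCGTG was in 30 of the 51 (58.8%), against 32.4% and 53.2%. Among the other hypoxia targets (the group given below) 7 of 8 promoters held ACGTG, and among the glycolytic enzymes 12 of 28 did. Several enzymes had more than 1 start, and counted by gene ACGTG was in 7 of 8 targets and 10 of 17 enzymes. Counted in the same way, it was in 5886 of all 27025 genes and in 1311 of the 4123 genes that reached 500. ACGTG overlaps the longer motif CACGTG, which binds other factors as well and was in 7 of the 51 promoters (13.7%, against 7.15% of all and 10.7% of those of genes that reached 500). Neither core was in the promoters of Gpi1, Tpi1 and Eno2. A match describes these letters only, and no binding was measured in these cells.

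Pa2g4 itself read 1835 intensity units on the wild type array and 1178 on the knock out array, on the brightest of its 5 probe sets. The study reports that knock out MEFs lacked Ebp1 mRNA by RT-PCR and Ebp1 protein by Western blot. What the Pa2g4 signal left on the knock out array measures was not tested. All ratios below are log2 values with the knock out signal over that of the wild type, which for Pa2g4 was -0.64. The authors scaled each array to the same target intensity, and the median signal over all probe sets was 66.5 and 71.6. Pairs of signals are given with wild type first. On the knock out array the 9 spike-in probe sets, which measure RNAs added at hybridization, were 1.31-fold brighter. The scatter of the ratios depended on brightness: the standard deviation of the log2 ratio across genes was 0.47 at mean signals from 100 to 500, 0.37 from 500 to 2000 and 0.24 above 2000. All 7 fibroblast markers examined reached 500 on both arrays, with a summed signal of 47352 and 49159. In the knock out sample 4 of them were higher, up to 0.26 for Col1a2 (8374 and 9997), and 3 were lower. The largest differences were those of Thy1 (4173 and 2784, -0.58) and Pdgfrb (3098 and 1952, -0.67), both lower. Epcam was 174 and 1350.5, and the summed signal of the 5 epithelial markers was 436 and 1759, with Krt19 at 88.0 and 197, while Cdh1, Krt8 and Krt18 were under 100 on both arrays. On at least 1 array, 1 of 4 endothelial, 2 of 4 macrophage, 3 of 4 neural and 1 of 3 muscle markers had 100 or more. Neither of the 2 measured erythroid markers did. The endothelial one was Kdr (101 and 156), and the macrophage ones were Csf1r (366 and 385) and Adgre1 (146 and 154). The leukocyte gene Ptprc (26.2 and 16.4) and the endothelial gene Pecam1 (12.2 and 9.97) were low on both arrays. The part of these marker differences in the results below was not tested. In bulk RNA, fewer cells that express a gene and less of its RNA per cell cannot be told apart.

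Most members, like most genes, differed by less than 1.5-fold between the genotypes. Of the 38 genes, 35 had at least 100 intensity units on 1 array or more, 22 reached 500, and Aldoc, Ankrd37 and Car9 stayed under 100 on both arrays, a level counted as low. None of the 22 that reached 500 differed over 2-fold, where 1.81% of all 5015 genes that reached 500 did (38 higher and 53 lower, against 28 and 70 with median centring and 17 and 228 with spike-in scaling). Over 1.5-fold, Adm and Ndrg1 were higher in knock out MEFs, 2 of the 22, against 2.99% of all genes. No member that reached 500 was over 1.5-fold lower, against 5.10% of all genes. For 22 genes, a count of 0 is near the shares of 1.81% and 5.10%, so these counts do not set the members apart. With spike-in scaling 0 of the 22 were over 1.5-fold higher and 5 were over 1.5-fold lower, against 0.837% and 31.2% of all genes. With a minimum of 100, Slc2a3 was the 1 member of 35 over 2-fold apart, against 3.52% of 10554 genes. The median log2 ratio of the 22 members was 0.01, with 11 higher and 11 lower, and that of all genes that reached 500 was -0.05.

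**Figure D1:**
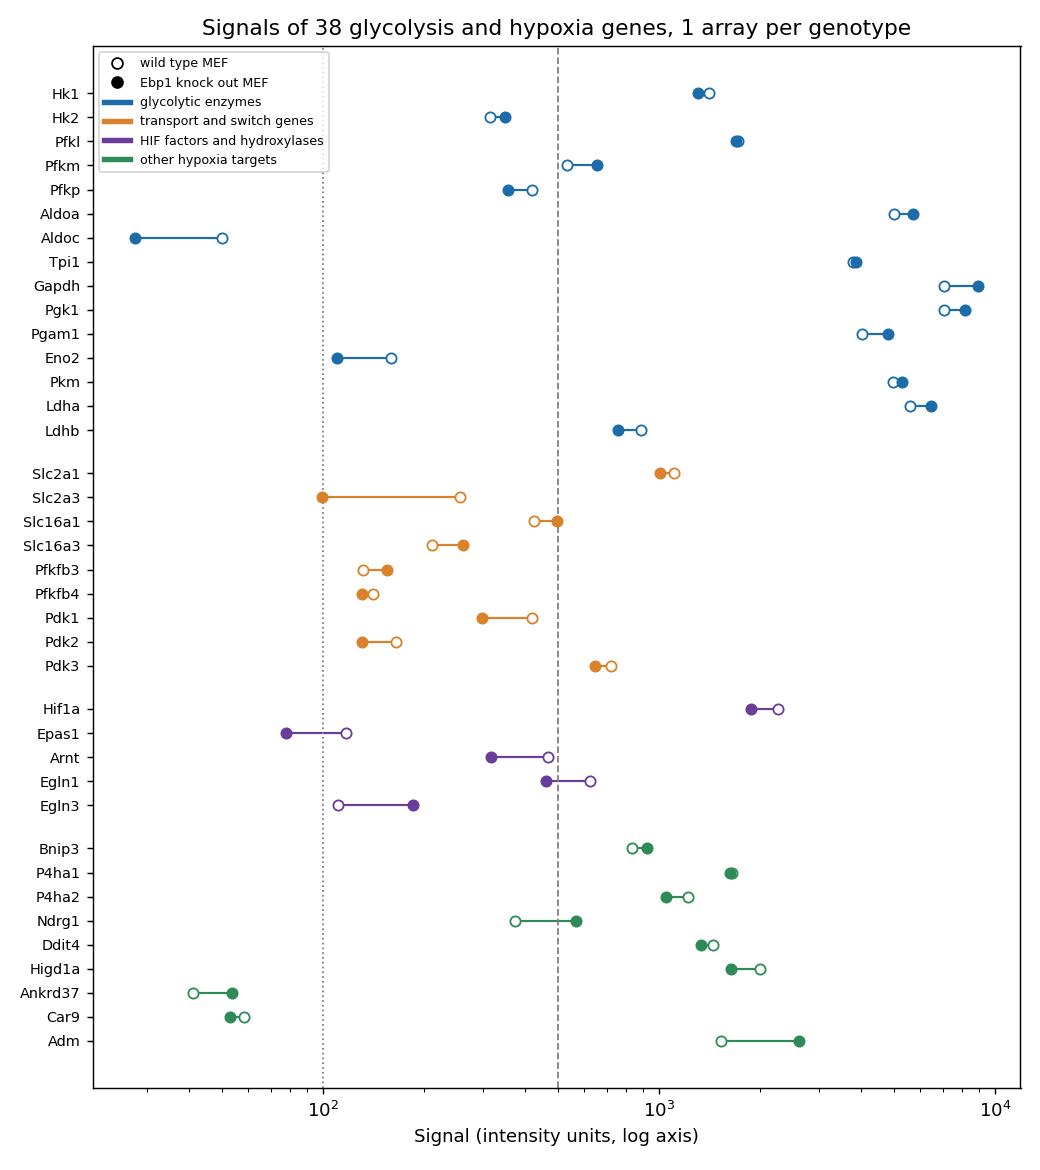
Signals of the 38 measured genes in wild type (open circles) and Ebp1 knock out MEFs (filled circles), 1 array each, on a logarithmic axis in intensity units, coloured by group. Dotted and dashed lines mark signals of 100 and 500. The longest line among genes over 100 on either array belongs to Slc2a3 (256 and 99.4), and the 7 enzymes at the right all have their knock out point to the right of the wild type point.

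Glycolytic enzyme genes with high signals were slightly higher in knock out MEFs, and those with lower signals went both ways. Aldoa, the aldolase of most tissues, read 4997 and 5703 (log2 ratio 0.19). Gapdh, which encodes the enzyme of the NADH-forming step, had 7042 and 8933 (0.34). Pgk1, which encodes the kinase of the first ATP-forming step, had 7055 and 8132 (0.21). These 3 genes were higher in the knock out sample by less than 1.3-fold each.

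Pgam1, the phosphoglycerate mutase, was 4013 and 4822 (0.26). Ldha, the lactate dehydrogenase subunit that favours lactate formation, was 5608 and 6451 (0.20). Pkm, the pyruvate kinase of most tissues, was 4981 and 5296 (0.09), and Tpi1, the triose phosphate isomerase, 3774 and 3873 (0.04). Thus all 7 enzymes with at least 3500 on both arrays were higher in knock out MEFs, with a median log2 ratio of 0.20. Bright genes in general leaned the same way, as 235 of 330 genes with at least 3500 on both arrays (71.2%) were higher, with a median of 0.09. The level of 3500 was set after the values were seen. When the ratios were corrected for brightness with loess, 6 of the 7 enzymes were still higher, from -0.01 for Tpi1 to 0.25 for Gapdh. With median centring 5 of the 7 were higher (-0.07 to 0.24), and with quantile normalization 5 were (-0.002 to 0.21). After scaling to the spike-ins all 7 were lower (-0.35 to -0.05).

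The enzymes with lower signals had no common direction. Pfkm, the muscle type of phosphofructokinase, read 533 and 654 (log2 ratio 0.29). Pfkl, the liver type, was 1716 and 1703 (-0.01), and Pfkp, the platelet type, was 421 and 355 (-0.24). The 3 phosphofructokinase genes were thus spread around equality. Hk1, the hexokinase of most tissues, was 1406 and 1307 (-0.11), and Hk2, the insulin- and hypoxia-responsive hexokinase, was 314 and 349.5 (0.15).

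The signals of the lactate dehydrogenase subunits differed in direction. Ldhb, the subunit that favours pyruvate formation, was 883 and 755 (-0.22), and all 4 of its probe sets were lower, from -0.30 to -0.20, while Ldha was higher on its only probe set. Eno2, the neuronal enolase, was dim at 159 and 110.1 (-0.53), and Aldoc, the brain aldolase, was low on both arrays (50.1 and 27.6). Over the 14 enzymes of at least 100, 9 were higher and 5 lower, for a median ratio of 0.12 (log2). Over the 11 that reached 500 it was 0.19 (8 higher, 3 lower), against -0.05 for all genes that reached 500. Of these 11 enzymes, 7 had at least 3500 on both arrays, where the median over all genes was 0.09.

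All probe sets annotated to Aldoa or Gapdh alone were higher. The 5 probe sets of Aldoa gave log2 ratios from 0.08 to 0.24. All 5 carry a suffix for probes that may hybridize to related transcripts, and without such probe sets Aldoa had no value. The 3 of Gapdh gave 0.34 at the 5' end, 0.24 in the middle and 0.10 at the 3' end of the transcript. Ratios along a transcript are used as a measure of RNA quality, whose part in these values was not tested. The Gapdh probe sets are control probe sets of the array, and the reported one at the 5' end was nearly tied in mean signal with the middle one. Another 4 probe sets name Gapdh or Hk1 together with pseudogenes or other genes and were left out. Of the 3 that name Gapdh, 2 were higher (0.35 and 0.41) and 1 was lower (711 and 564, -0.33). Of the 3 probe sets of Pgk1, 2 were higher and the dimmest was lower (-0.21), and Tpi1 (-0.11 to 0.04), Pfkl (-0.03 to 0.43) and Hk1 (-0.11 and 0.75) also had probe sets on both sides of 0.

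**Figure D2:**
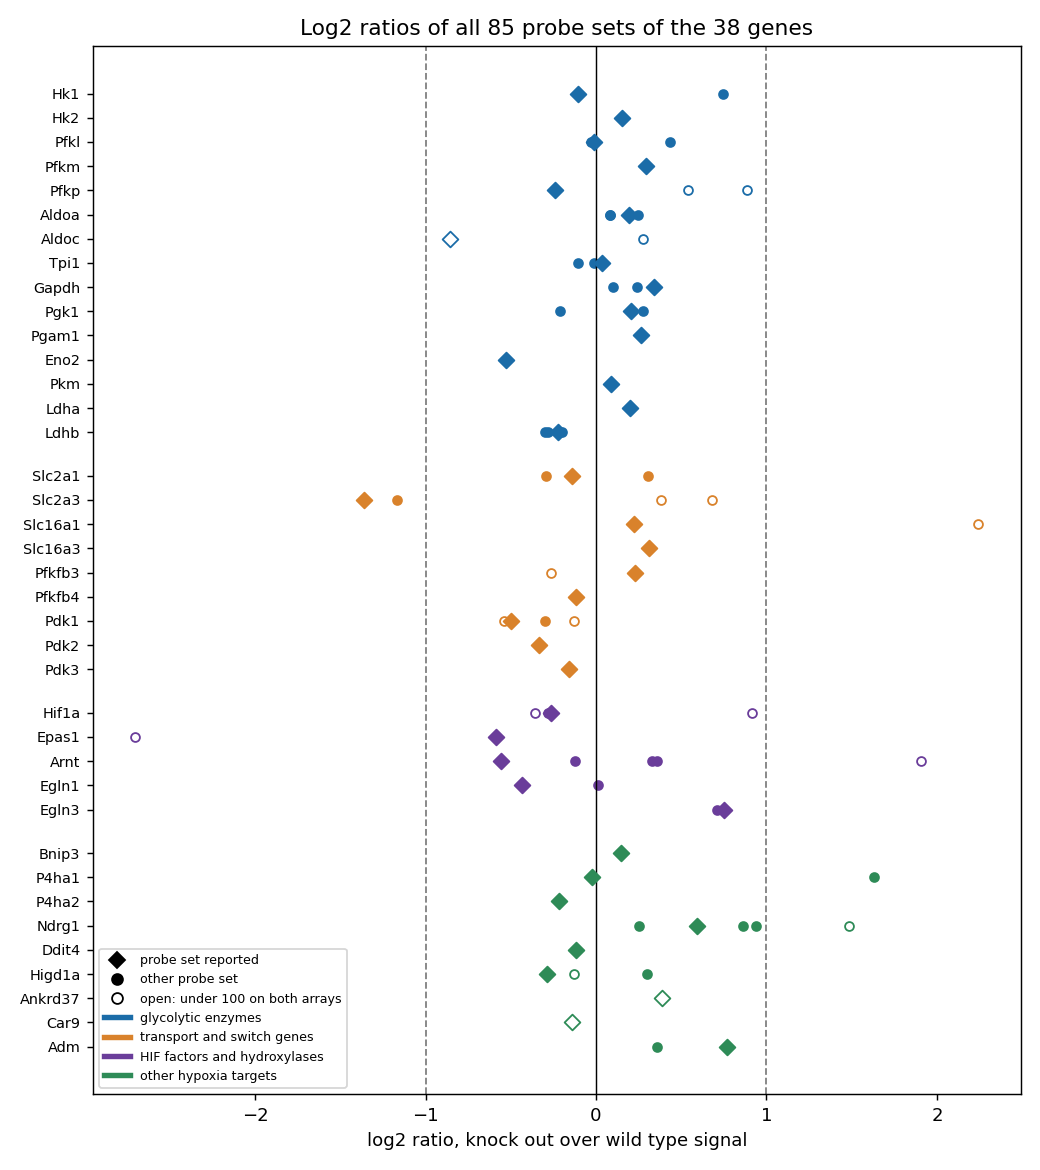
Log2 ratio (knock out over wild type) for all 85 probe sets of the 38 genes, 1 row per gene, coloured by group. Diamonds mark the reported probe set, circles the others, and open symbols those under 100 on both arrays, and dashed lines mark a 2-fold ratio. Probe sets of Ldhb, Pdk1, Egln3, Ndrg1 and Adm stay on 1 side of 0, and those of P4ha1 and Arnt do not.

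The transport and switch genes are glucose and lactate transporters, bifunctional regulators of phosphofructokinase and pyruvate dehydrogenase kinases. Of these 9 genes, 3 were higher and 6 lower, where 41.9% of all 10554 genes of at least 100 were higher. The facilitated glucose transporter gene Slc2a3 (GLUT3) had the largest ratio. Slc2a3 read 256 and 99.4 (log2 ratio -1.36), which is at least 2.56-fold lower with 100 in place of the low signal. Its next probe set, of at least 100 in wild type MEFs only, was lower as well (187 and 83.4, -1.16). The other 2 probe sets were under 10 on both arrays, so that both informative probe sets lie in the same direction. The informative pair carries suffixes for probes that may hybridize to related transcripts. Without such probe sets the value of Slc2a3 was 0.68 (log2), from a probe set under 10 on both arrays, and averaged over all 4 it was -0.37. The ubiquitous glucose transporter gene Slc2a1 (GLUT1) was 1112 and 1007 (-0.14), within 2-fold on each of its 3 probe sets (-0.30 to 0.31).

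The lactate transporters were both slightly higher. Slc16a1, which encodes MCT1, had 425 and 497 (0.22), and Slc16a3, which encodes the hypoxia-induced exporter MCT4, had 211 and 262 (0.31). Both turned below 0 after spike-in scaling. The bifunctional enzymes that set fructose 2,6-bisphosphate, the activator of phosphofructokinase, were dim and close to equal, Pfkfb3 at 132 and 155 (0.23) and Pfkfb4 at 141 and 131 (-0.12).

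All 3 pyruvate dehydrogenase kinases among the members were lower. Pdk1, the classical HIF target of the family, was 419.6 and 297 (-0.50), and all 4 of its probe sets were lower (-0.54 to -0.13), 2 of them under 100 on both arrays. Pdk2 was 165 and 131 (-0.33), and Pdk3 was 721 and 647 (-0.16). These differences were 1.12-fold to 1.41-fold, close to or within 1 standard deviation of all genes of like signal. The median over the 9 transport and switch genes was -0.14, against -0.06 for all genes of at least 100.

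Of the factors that sense oxygen and act on it, 4 of 5 were lower in the knock out sample, in a background where 6130 of 10554 genes were lower. Hif1a, which encodes HIF-1alpha, read 2256 and 1879 (log2 ratio -0.26), with -0.28 on the other probe set over 100. Arnt, the partner of both alpha subunits, was 467 and 317 (-0.56) on the reported probe set, but 2 of its 4 probe sets over 100 were higher (up to 0.36). Epas1, which encodes HIF-2alpha, was near the low level at 117 and 77.9 (-0.59), at least 1.17-fold lower with 100 in place of the low signal. The signals of these 3 genes say nothing of their proteins, and the amount of the alpha subunits is set mainly by degradation.

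The prolyl hydroxylases were split. Egln1 (PHD2), the main hydroxylase of HIF-1alpha at normal oxygen, was 626 and 463 (-0.43) on the reported probe set and equal on the other (0.01). Egln3 (PHD3), itself induced by HIF, was 111 and 186 (0.75), and its second probe set gave a similar ratio (0.71). Egln3 was therefore the single member of this group that was higher, at signals that stayed under 500 on both arrays, and it was higher under each alternative tried. The median of the 5 genes was -0.43, and 0.0031 with each gene averaged over all its probe sets. These averages include probe sets under 100 on both arrays. For Hif1a such probe sets read 30.1 and 56.8 (0.92) and 26.4 and 20.6 (-0.36).

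Among the other hypoxia targets, Adm and Ndrg1 were the members with the largest positive ratios of those that reached 500. Adm, which encodes the vasodilator peptide adrenomedullin, read 1530.3 and 2611 (log2 ratio 0.77, 1.71-fold). Its other probe set gave a smaller ratio (0.36) at nearly the same mean signal. Ndrg1, a stress- and hypoxia-induced gene of differentiated cells, had 374 and 565 (0.59, 1.51-fold), and all 5 of its probe sets were higher, the 4 over 100 from 0.25 to 0.94. Both genes stayed higher under each alternative tried, but not always by over 1.5-fold, as Adm was 0.56 with probe sets averaged and 0.38 with spike-in scaling, and Ndrg1 was 0.49 with median centring, 0.54 with 50 added and 0.20 with spike-in scaling. Set against genes of like signal, Adm lay above the middle 95% of the 923 genes with a mean signal of at least 2000 (-0.46 to 0.45), and Slc2a3 lay below that of the 5491 genes from 100 to 500 (-0.96 to 0.85). They were the 2 members outside these ranges among the 34 with a mean signal of at least 100, and the ranges leave out 5% of all genes by construction, so this share is near that of all genes.

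The other members of this group that reached 500 were within 1.25-fold on the reported probe set. Bnip3, which encodes a mitophagy receptor, was 833 and 920.0 (0.14). Ddit4 (REDD1), an inhibitor of mTORC1, was 1448 and 1333 (-0.12), and Higd1a, which encodes a small mitochondrial protein, was 2006 and 1644 (-0.29), with 0.30 on another probe set. Bnip3 was thus slightly higher and the other pair slightly lower with the deposited signals. With spike-in scaling Bnip3 was lower as well (-0.25).

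The collagen prolyl hydroxylase genes were not higher on the reported probe sets. P4ha1 read 1656 and 1632 (-0.02), and P4ha2 was 1220.2 and 1049 (-0.22). A dimmer probe set of P4ha1 gave 148 and 459.8 (1.63), the largest positive ratio of any member probe set over 100, so that the value for this gene depends on the probe set. Ankrd37 (41.0 and 53.6) and Car9 (58.4 and 52.9), the latter encoding carbonic anhydrase 9 and often used as a marker of hypoxic cells, were low on both arrays.

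**Figure D3:**
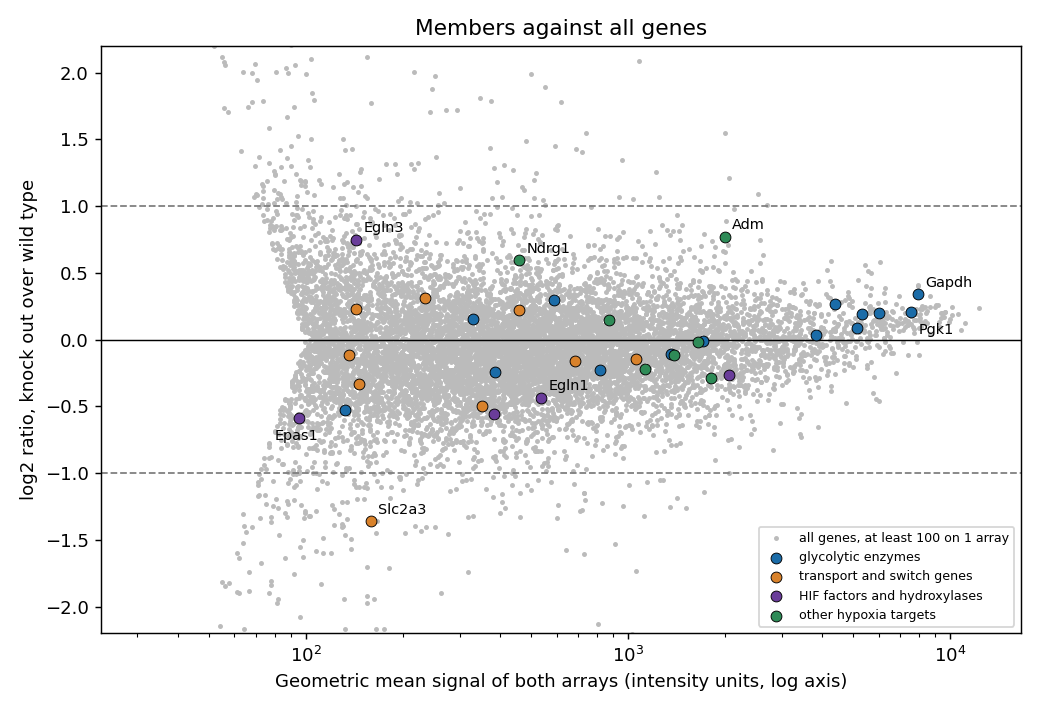
Log2 ratio (knock out over wild type) against the geometric mean signal (logarithmic axis) for the 10554 genes of at least 100 on 1 array (grey; 47 lie beyond the plotted range of 2.2) and for the 35 members among them (coloured by group). Dashed lines mark 2-fold. Slc2a3 lies below the lower line, Adm, Ndrg1 and Egln3 lie above most members, and the 7 bright enzymes at the right lie between 0.04 and 0.34.

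The contrast between the glycolytic enzymes and the other hypoxia targets was small. The 7 other hypoxia targets of at least 100 had a median log2 ratio of -0.02 (3 higher and 4 lower), 0.14 below the median of the 14 enzymes. Adm and Ndrg1 exceeded every enzyme in log2 ratio, and the enzymes had the narrower range (-0.53 to 0.34 against -0.29 to 0.77 by the reported probe sets). The difference of medians was 0.09 with loess and 0.05 with quantile normalization, and it was the same under median centring and spike-in scaling, which shift all genes alike. With each gene averaged over its probe sets the medians were nearly equal, 0.16 for the enzymes and 0.14 for the other hypoxia targets. The median of the enzymes itself was below 0 with spike-in scaling (-0.27), as was that of all genes that reached 500 (-0.44).

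**Figure D4:**
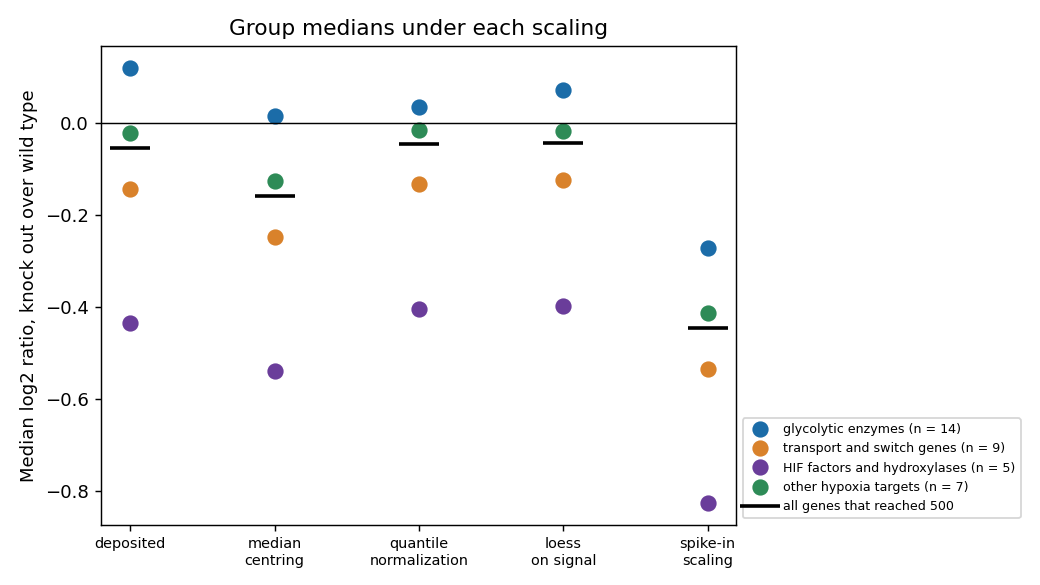
Median log2 ratio of each group of members (points, genes of at least 100 on 1 array) and of all genes that reached 500 (black bars) with the deposited signals and under 4 other scalings. The enzymes lie above the other groups and the black bar under each of the 5 scalings, at 0.12 with the deposited signals and -0.27 with spike-in scaling.

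Further genes of the oxygen pathway and of neighbouring carbon metabolism had small median ratios, but some single genes differed more. Among those that reached 500, Cited2 (0.74), Pdk4 (0.82) and Gpd2 (0.67) were over 1.5-fold higher, where 2.99% of all genes were. The lowest ratio among them was that of Plod1 (-0.42). These genes were named after the values were seen. Of 25 further hypoxia pathway genes 23 were measured and 21 had at least 100, of which 9 were higher and 12 lower (median -0.12). None of the 10 that reached 500 was over 2-fold apart, against 1.81% of all genes. For 10 genes, a count of 0 is near that share. The brightest were Lox, the collagen cross-linking lysyl oxidase (7476 and 8901, 0.25), Mif, a cytokine gene (4303 and 5391, 0.33), and Cited2, a feedback inhibitor of HIF that competes for its coactivators (1979 and 3315, 0.74). Of 30 genes of neighbouring carbon metabolism 26 were measured and 21 had at least 100, of which 13 were higher and 8 lower (median 0.07). None of the 12 that reached 500 was over 2-fold apart, which is again near the share of all genes. The brightest were the transketolase gene Tkt (4947 and 5417, 0.13), the pyruvate dehydrogenase subunit gene Pdha1 (2401 and 2477, 0.05) and Pgd of the pentose phosphate pathway (2237 and 2470.0, 0.14).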

How the data were processed

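The authors deposited 1 linear signal intensity per probe set and array, made in Microarray Suite 5.0 (MAS5) with each array scaled to 1 target value. Detection calls were not used here. Of 45101 probe sets, 34958 had 1 gene symbol, 932 several and 9211 none; 34754 of the first matched a gene in the GRCm38.p6 annotation, from which symbols were updated. The log2 ratio (knock out over wild type) was computed per gene from the probe set with the highest mean log2 signal. Control probe sets were kept where they name a gene. No test was run, since there is 1 array per genotype. Minimum (500) and fold (2) follow the methods of the study. Medians are over members of at least 100 on 1 array. All 40 members were named or counted, together with the 3 brightest genes of each further list; further genes are given as chosen after their values were seen. The members and lists were chosen with earlier results of these data known. Alternatives were median centring, quantile normalization, loess (fraction 0.3), spike-in scaling, 50 added, signals raised to 100, other minimum signals and other probe set choices. The steps were tested on simulated data. Python 3.11.15 was used with pandas 2.3.3, numpy 2.4.6, matplotlib 3.10.9 and statsmodels 0.14.6.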

Additional observations from a re-analysis of the deposited data

How the results depend on the processing

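No paired analysis was possible because each genotype has a single array. Median centring lowered each log2 ratio by 0.11 and spike-in scaling by 0.39. The median of the glycolytic enzymes (0.12) was -0.27 with spike-in scaling and stayed above 0 under the other alternatives. It was close to 0 with median centring (0.02) and quantile normalization (0.04), with 7 of 14 enzymes higher under each. Each gene was also averaged over all its probe sets, those under 100 on both arrays included. The median of the HIF factors and hydroxylases (-0.43) was then 0.0031 and that of the other hypoxia targets (-0.02) was 0.14. No member was over 2-fold apart with at least 500 on 1 array, and 1 was with a minimum of 100. Of 340 values of single members, 29 changed sign, 14 of them with spike-in scaling, and 9 moved by over 1.5-fold, 6 of them by averaging probe sets. Of 35 members of at least 100, 15 kept 1 direction throughout (3 higher and 12 lower), a split that partly follows from median centring and spike-in scaling, which lower all ratios and so can turn positive ones alone. The cause was not tested. Low signal limits the ratios, as 57.9% and 57.1% of probe sets were under 100.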

Other observations

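Several genes outside the 40 members, chosen after their values were seen, differed more than most members. Pdk4, the pyruvate dehydrogenase kinase that is induced by fasting and fatty acids, read 885 for wild type MEFs against 1559 for knock out MEFs (log2 ratio 0.82) with its only probe set, while Pdk1, Pdk2 and Pdk3 were lower (-0.50, -0.33 and -0.16). Cited2 was higher on both of its probe sets (0.65 and 0.74). Gpd2, the mitochondrial glycerol phosphate dehydrogenase of the shuttle that carries cytosolic NADH electrons to the respiratory chain, was 377 and 601 (0.67), with 3 of 3 probe sets over 100 higher, from 0.01 to 0.68.

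Eno3, the muscle enolase, was 181 and 365 (1.01) on its only probe set, while the neuronal enolase Eno2 was 159 and 110.1 (-0.53). Car12, a membrane carbonic anhydrase, was 50.2 and 168 on its brightest probe set, at least 1.68-fold higher with the low signal set to 100, while Car9 was under 100 on both arrays. None of these differences was tested.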
